A study of Rattus norvegicus with 6 samples.

Results

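Nuclear CHG and CHH cytosines, where H stands for A, C or T, are the cytosines of the nuclear chromosomes that are not followed by a G. They were read here in rat hippocampus by reduced representation bisulfite sequencing (RRBS). The method covers a CpG-rich part of the genome and counts, at each cytosine, the reads that call it methylated or unmethylated. The members were all sites given a CHG or CHH letter in the deposited tables, on every chromosome but the mitochondrial genome, with the same context and 10 or more reads in both libraries. They came to 4410753 of the 5628789 cytosines joined between the libraries (78.4%), 1649274 of them CHG and 2761479 CHH. The B[a]P library came from hippocampus of Sprague-Dawley stock treated with benzo[a]pyrene (B[a]P), which forms when organic matter burns incompletely, and the control library from hippocampus after corn oil, the vehicle. The labels of the matching RNA libraries describe 7 weeks of daily oral gavage, with 2.0 mg/kg B[a]P or the same volume of oil. The labels gave an age of 7 weeks for both groups, but neither the sex nor how many animals went into a library. The series also held RNA-seq and miRNA-seq libraries, which were not used here. Whole tissue was used, so neurons and other cells cannot be told apart, and the labelled tissue cannot be checked by markers in these DNA tables. With 1 library a group, no difference has a replicate check, and each test compares the libraries, not the conditions.

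In most adult mammalian tissues methylation sits almost wholly at CpG, where both strands carry the mark and DNMT1 copies it when DNA replicates. Neurons are the best known exception: after birth the de novo enzyme DNMT3A adds methyl groups at non-CpG cytosines, mostly where the next base is A. A CAG or CTG site has a CHG cytosine on each strand, much as CpG has a cytosine on each, whereas the mirror cytosine of CCG is a CpG and CHH sites have no such partner. A cytosine that fails to convert in bisulfite is also counted as methylated, so a low level holds both kinds of read. No genome sequence of the files' build was used here, so sites are given by position only, without the bases around them or gene annotation.

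Nuclear non-CpG cytosines were nearly unmethylated on average, and CHH lay slightly above CHG. Over all CHG sites, 751259 of 122462009 reads in the B[a]P library were methylated, a pooled level of 0.613% (exact Clopper-Pearson 95% interval 0.612 to 0.615). In the control library the CHG level was 0.639% (0.637 to 0.640, 142939992 reads). The CHH level was 0.667% in the B[a]P library (0.666 to 0.668, 182332497 reads) and 0.685% in the control library (0.683 to 0.686, 197120145 reads). At sites with 100 or more reads in both libraries the order turned in the B[a]P library, with CHG at 0.504% and CHH at 0.496%. In the control library CHH stayed barely above CHG there, at 0.5385% against 0.5375%. These intervals, and all below, cover counting error only, since copies of 1 molecule were not identifiable. Nuclear CpG sites, measured the same way, were at 20.4% (B[a]P) and 17.3% (control). As a mean of site levels they were closer, at 26.0% and 25.7%.

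The mitochondrial genome gave a reference level within each library. Its 510 CHG sites were at 0.392% in the B[a]P and 0.461% in the control library, and its 2106 CHH sites at 0.324% and 0.362%. Nuclear sites therefore lay above mitochondrial ones by 0.222 points (CHG) and 0.343 points (CHH) in the B[a]P library, and by 0.177 and 0.322 points in the control library. By these pooled levels mitochondrial CHG was above CHH in both libraries, the reverse of the nuclear order. As a mean of site levels the order was that of the nucleus. Mitochondrial CHH was then at 0.485% (B[a]P) and 0.595% (control), and CHG at 0.369% and 0.432%. The control library was the higher one at nuclear and at mitochondrial sites. Once the pooled mitochondrial level was subtracted from the pooled nuclear one, the B[a]P library was the higher one. With means of site levels this was so for CHG but not for CHH. Nuclear CHH was then at 0.784% (B[a]P) and 0.905% (control), and the control library stayed higher after the subtraction. The direction of the small nuclear difference between the libraries thus depended on that subtraction and, for CHH, on the measure.

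Most sites were never seen methylated. No methylated read was found in either library at 56.7% of CHG and 62.1% of CHH sites. At 10% or more were 10204 CHG sites in the B[a]P library and 13378 in the control library, 0.619% and 0.811% of the CHG sites. Among CHH sites the numbers were 35686 and 46423, or 1.29% and 1.68%, about 2.09 and 2.07 times the CHG shares. Only 2 of the 2106 mitochondrial CHH sites reached 10% in the B[a]P library and 4 in the control library, and none of the mitochondrial CHG and CHH sites did in both, which for 2616 sites allows a share of up to 0.115%. Mitochondrial sites were read more deeply, at medians of 314 (B[a]P) and 378 (control) reads for CHG and 120 and 117 for CHH. Nuclear medians were 46 to 58 reads, and nuclear shares fell with coverage, as given below, so these shares are not compared at like depth.

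The sites at 10% or more in both libraries numbered 4784 CHG (0.290% of CHG sites, 95% interval 0.282 to 0.298) and 21455 CHH (0.777%, 0.767 to 0.787). The CHH share was thus 2.68 times the CHG share, while the pooled levels differed by a factor of only 1.09 (B[a]P) and 1.07 (control). The CHH share was above the CHG share on all 21 chromosomes. Its ratio to the CHG share ranged from 2.27 to 3.14 over the autosomes. Bins just above and just below the threshold held similar counts, but many sites stood on the threshold itself. Exactly 10% was reached at 294 CHG and 1225 CHH sites. In 154 CHG and 612 CHH sites of the lists 1 library had a single methylated read. The lower of the 2 levels lay between 10% and 11% at 669 CHG and 2986 CHH sites and between 9% and 10% at 729 and 3061, with the nearest sites below at 9.95% and 9.96%.

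These shares fell with coverage, and at 10 reads 1 methylated read already makes 10%. Among CHH sites with 10 to 19 reads in the shallower library 1.26% were at 10% or more in both, among those with 30 to 49 reads 0.675%, and among those with 100 or more 0.276% (954 of 346037). Among CHG sites the same classes gave 0.517%, 0.242% and 0.118% (322 of 273862). The CHH share was 2.34 to 2.78 times the CHG share in every class. The pooled level fell along the same classes, for CHH in the control library from 1.17% to 0.538%, so the deeper sites were also less methylated on average. Sites with 20 or more reads in both libraries numbered 1290489 CHG and 2035123 CHH. Of these 0.227% and 0.606% were at 10% or more in both. They were then reduced by calculation to 20 reads, of which 2 or more had to be methylated. The shares in both libraries were then 0.351% for CHG and 0.817% for CHH, a ratio of 2.33.

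**Figure D1:**
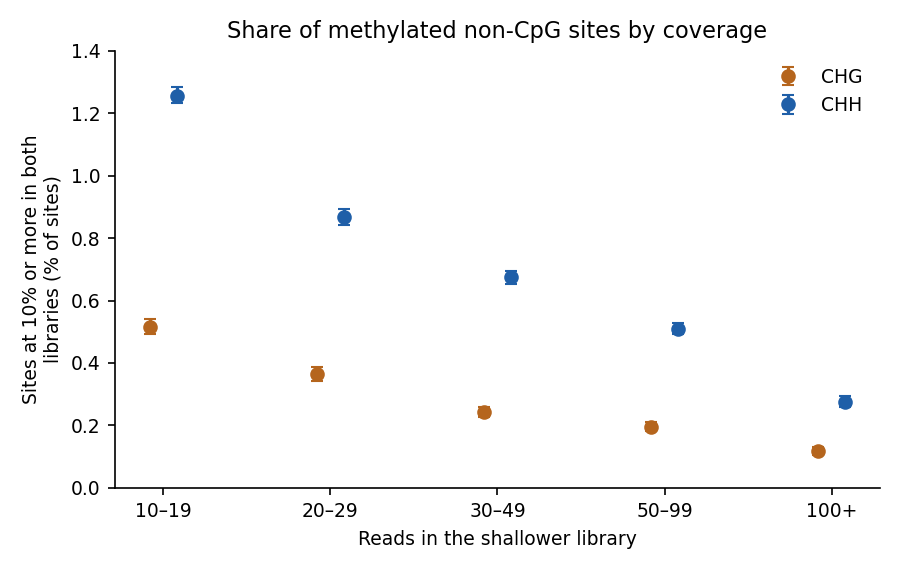
Share of CHG and CHH sites at 10% methylation or more in both libraries (vertical axis, percent of sites), by the number of reads in the shallower library (horizontal axis). Points are shares and bars exact 95% intervals; CHH lies above CHG in all 5 classes, at 1.26% against 0.517% in the shallowest and 0.276% against 0.118% in the deepest.

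The lists of methylated sites overlapped between the libraries, more so where depth was high. Of the CHG sites at 10% or more in the B[a]P library 46.9% were also so in the control library, and these made up 35.8% of the control list. For CHH the shares were 60.1% of the B[a]P list and 46.2% of the control list. Over sites with 20 or more reads in both libraries the shared part was 56.0% of the B[a]P list for CHG and 66.0% for CHH. With each of these sites reduced to 20 reads it fell to 25.4% and 43.7%. At a threshold of 20%, over all sites, it was larger for CHG (72.95%) than for CHH (68.1%). Any CHG site reached 10% in the control library in 0.811% of cases and any CHH site in 1.68%. At 100 or more reads the shared sites made up 74.2% of the B[a]P and 79.3% of the control CHG list, and 77.5% and 74.1% of the CHH lists. Sites listed in the B[a]P library were at a pooled 23.1% (CHG) and 18.5% (CHH) in the control library, which had not been used to list them, against 0.639% and 0.685% over all sites. Their median level there was lower, at 8.97% (CHG) and 13.0% (CHH). Sites of the control list were at a pooled 19.2% and 14.8% in the B[a]P library, with medians of 5.56% and 8.82%.

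Levels were compared as well. Across all CHG sites Pearson's r between the libraries was 0.760 and Spearman's rho 0.215. Across all CHH sites they were 0.731 and 0.250. These describe sites that share their libraries and are mostly at 0, and they carry no test. At 30 or more reads, the sites listed in the B[a]P library had a median level of 12.9% (CHG) and 14.5% (CHH) in the control library. Of the sites at 10% or more in either library at that depth, 56.6% of 4516 CHG and 50.7% of 16305 CHH sites were under 10% in the other. Few at that depth were empty in the other library: 3.93% of the B[a]P list (CHG) and 1.86% (CHH) had no methylated read in the control library. Over the full B[a]P lists, at all depths, these shares were 23.7% and 15.2%. Of the full control lists 33.0% (CHG) and 22.3% (CHH) had no methylated read in the B[a]P library.

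**Figure D2:**
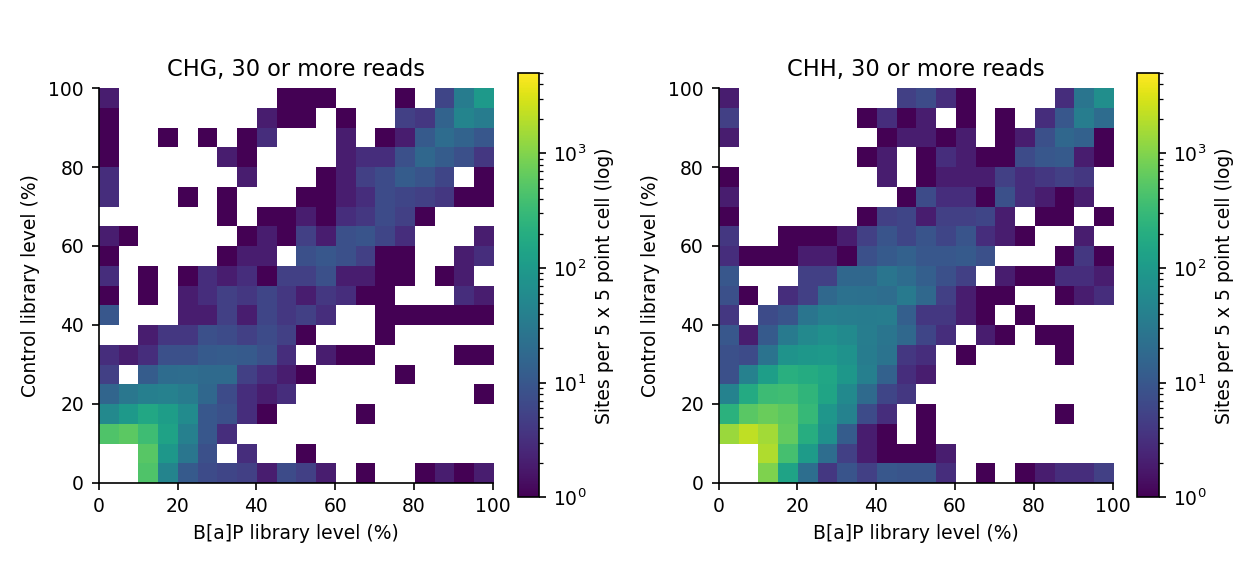
Methylation level in the B[a]P library (horizontal axis, percent) against the control library (vertical axis, percent) for CHG (left) and CHH (right) sites at 10% or more in either library and with 30 or more reads in both; colour gives the number of sites per cell of 5 by 5 points on a log scale. Most sites lie in the lower left corner, with 56.6% (CHG) and 50.7% (CHH) under 10% in 1 library, and a smaller group of 340 CHG and 231 CHH sites is at 80% or more in both.

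CHG and CHH sites differed in the form of their distributions. Of the 21455 CHH sites, 20047 (93.4%) had a lower level between 10% and 50%, and 518 (2.41%) were at 80% or more in both libraries. Of the 4784 CHG sites, 3555 (74.3%) were between 10% and 50% and 719 (15.0%) at 80% or more. The CHG sites at 80% or more had a median level of 94.1% in the B[a]P and 93.3% in the control library. The sites between 10% and 50% had medians of 16.7% and 18.2% for CHG and 18.2% and 20% for CHH. Both contexts thus had a smaller group of nearly fully methylated sites, which took a larger part of the CHG list.

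The highly methylated CHG sites stood at a particular place in the data. A run end is defined here as a site with no joined cytosine of any context within 100 bp on at least 1 side, a definition chosen after the values were seen. Of the 719 CHG sites at 80% or more, 525 (73.0%) stood at a run end, against 4.21% of all CHG sites. Of the 518 such CHH sites 8 (1.54%) did, against 0.181% of all CHH sites. The CHG sites between 10% and 50% stood at a run end in 7.17% of cases. Inside runs the order was the other way round, with 194 CHG sites (0.0123% of those inside runs) and 510 CHH sites (0.0185%) at 80% or more. Without run ends the CHG share at 10% or more in both fell from 0.290% to 0.235%, and the CHH share was 0.776%. Whether the place of these sites within the sequenced fragments had a part in their level was not tested. Nor was it tested whether the context letters match the animals' own sequence: 421 nuclear positions carried different letters in the 2 libraries and were left out.

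**Figure D3:**
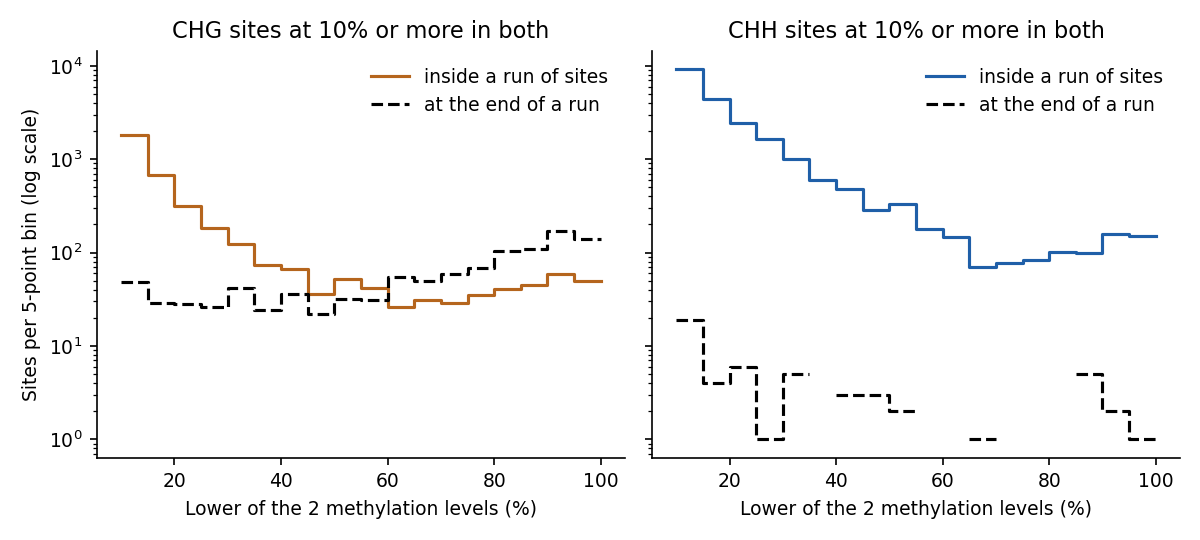
Number of CHG (left) and CHH (right) sites per 5-point bin (vertical log axis) by the lower of their 2 methylation levels (horizontal axis, percent), for sites at 10% or more in both libraries. Solid lines are sites inside a run and dashed lines sites at a run end; at 80% or more, 525 of 719 CHG sites but 8 of 518 CHH sites lie at a run end.

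Among the sites with 30 or more reads in both libraries, the most methylated CHG sites were read as methylated in nearly every read. The site at chr4:238667571 had 72 of 72 methylated reads in the B[a]P and 37 of 37 in the control library. At chr9:18762387, a run end, the counts were 48 of 48 and 140 of 141. At chr3:31556815, also a run end, they were 88 of 89 and 102 of 103. The levels of the 2 libraries at these sites lay within 0.709 points of each other. The first lay among 62 other members within 100 bp, none of them at 10% in both libraries, beside CpG sites at 96.4% (B[a]P) and 95.9% (control). The CHH site at chr5:139790690 had 148 of 148 and 220 of 220 methylated reads, with CpG sites within 100 bp at 96.1% and 96.0%. None of its 41 neighbouring members was at 10% in both libraries, so the cytosine stood alone. Of the 10 most methylated sites, 5 in each context, all but chr9:15616977, which had 3 such neighbours, stood alone in this sense.

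The most deeply read sites of intermediate level showed how closely the libraries could agree. The CHH site at chr4:209834793 was at 11.7% in the B[a]P (55 of 469 reads) and 12.7% in the control library (62 of 489). The CHH site at chr9:9271930 was at 15.9% (73 of 458) and 16.9% (83 of 491). At chr19:65691085 the CHH levels were 29.05% (113 of 389) and 31.7% (152 of 479). None of these 3 passed the exact Fisher test (unadjusted p = 0.693, 0.726 and 0.415). The 2 deeper CHH sites lay further apart, at chr7:284817 with 10.5% of 2645 against 14.1% of 5497 reads (exact Fisher test, adjusted p = 0.0159) and at chr19:38936417 with 10.5% of 1137 against 14.2% of 1053 reads (exact Fisher test, unadjusted p = 0.00904, which did not pass after adjustment).

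The deepest intermediate CHG sites were less even. At chr1:32415256 the level was 48.6% in the B[a]P library (1049 of 2158 reads) and 22.5% in the control library (633 of 2813), a difference of 26.1 points (exact Fisher test, adjusted p = 3.61e-78). At chr14:10434083 it was lower in the B[a]P library, at 27.3% (264 of 966) against 45.7% (537 of 1175; exact Fisher test, adjusted p = 1.70e-14). At chr14:10434043, 40 bp away, it was 10.8% (76 of 703) against 20.5% (131 of 640; exact Fisher test, adjusted p = 0.00325). At chr14:446354, by contrast, the levels of 15.3% (430 of 2808) and 11.9% (281 of 2356) did not pass the adjusted test, nor did those of chr1:56947486 (17.3% of 601 and 14.05% of 783 reads). So 3 of these 5 sites passed the adjusted test, 1 of them with the B[a]P level higher and 2 with it lower.

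The 2 cytosines of a CHG pair were almost never methylated together. The tables give no strand, but the cytosines of a CHG and its mirror image on the other strand lie 2 bp apart, and 283758 such pairs had no further CHG site 2 bp beyond. In 2108 of them 1 cytosine was at 10% or more in both libraries and in 3 both were, so that both were methylated in 0.142% of the 2111 pairs with any (95% interval 0.0293 to 0.415). The partner of a methylated CHG cytosine was methylated in 0.284% of cases, against 0.373% of all cytosines in these pairs. The partners' median level was 0% in both libraries. Of 490 pairs with 30 or more reads at both sites and a methylated cytosine, 0 had both, which allows a share of up to 0.612%. Adjacent CpG pairs, the same comparison at CpG, had both cytosines methylated in 92.8% of 76133 pairs with any.

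The highly methylated CHG sites were as one-sided as the others. In 241 pairs a cytosine was at 80% or more in both libraries, and in 240 of them the partner was under 10% in at least 1 library. The partner had no methylated read in either library in 110 of them. The 3 pairs with both cytosines methylated were at chr4:165366752, inside the densest window described below, at chr7:128418809 (78.1% and 71.8% in the B[a]P library, 75% and 66.7% in the control library) and at chr14:66926886 (95.2% and 14.3%, 97.3% and 11.1%). Pairs whose 2 sites lie on the strands of different CHG sequences could not be set apart.

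Methylated non-CpG sites lay where CpG sites were methylated. The genome was divided into tiles of 1000 bp, and the 48755 tiles with 5 or more CpG and 10 or more non-CpG sites held 70.0% of the members. In tiles whose CpG level was under 10% in the control library, 77 of 1122175 CHH sites (0.00686%) and 80 of 710605 CHG sites (0.0113%) were at 10% or more in both libraries. In tiles at 90% CpG methylation or more, 3781 of 260788 CHH sites (1.45%) and 704 of 139274 CHG sites (0.505%) were. The share was 211 times higher for CHH and 44.9 times higher for CHG. With CpG levels taken from the B[a]P library the ratios were 225 and 46.8. Tiles of high CpG methylation were read less deeply, at a median of 30 reads per CHH site against 43. With the sites of 20 or more reads reduced to 20, the ratios were 143 for CHH and 50.7 for CHG (control library).

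The order of the contexts turned along this scale. In the control library's tiles under 10% CpG methylation CHG sites were at a pooled 0.394% and CHH sites at 0.367%, and in tiles at 90% or more CHH sites were at 1.14% and CHG sites at 1.05%. In the B[a]P library the values were 0.337% (CHG) and 0.312% (CHH) against 0.958% (CHG) and 1.06% (CHH). In the tiles under 10% the CHH levels lay next to the mitochondrial ones of 0.324% (B[a]P) and 0.362% (control), and the CHG levels below the mitochondrial 0.392% and 0.461%. Most of the gain was reached in tiles of 50 to 90% CpG methylation, where 1.35% of CHH and 0.478% of CHG sites were at 10% or more in both. Sites at 80% or more in both libraries were absent from the tiles under 10%, with 0 of 710605 CHG and 0 of 1122175 CHH sites, which allows up to 0.000422% and 0.000267%. Across tiles the non-CpG and the CpG level of the control library had a Pearson's r of 0.457 and a Spearman's rho of 0.634 (48755 tiles), and of the B[a]P library 0.441 and 0.636. These describe tiles of 1 library that share reads and depth.

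**Figure D4:**
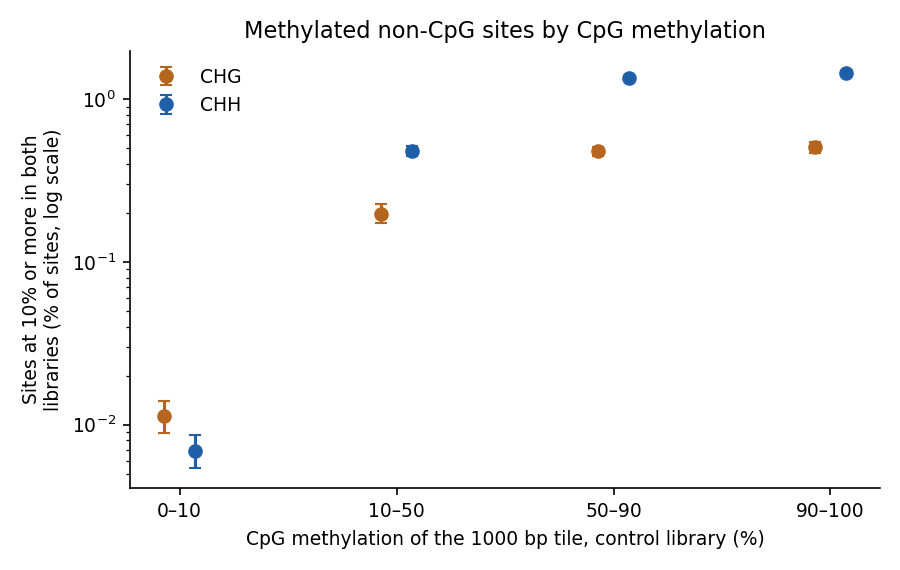
Share of CHG and CHH sites at 10% methylation or more in both libraries (vertical log axis, percent of sites) by the CpG methylation of their 1000 bp tile in the control library (horizontal axis, percent). Points are shares and bars exact 95% intervals; the CHH share runs from 0.00686% in the least to 1.45% in the most methylated tiles, and CHG lies above CHH only in the first class.

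The share also changed with the distance to a CpG. CHH sites 2 bp from the nearest joined CpG site were at 10% or more in both libraries in 0.0927% of cases, those at 3 to 10 bp in 0.636%, at 11 to 50 bp in 1.27% and beyond 50 bp in 1.25%. CHH sites next to a CpG (1 bp) were at 0.182%. CHG sites 1 bp from a CpG, which include the first C of CCG, gave 0.0418%, those at 2 bp 0.0803%, at 3 to 10 bp 0.256%, at 11 to 50 bp 0.499% and beyond 50 bp 0.869%. Sites far from a CpG were read less deeply, at a median of 26 reads beyond 50 bp against 45 at 1 bp for CHH. Reduced to 20 reads, the CHH share still went from 0.114% at 2 bp to 1.35% at 11 to 50 bp and 1.5% beyond, and the CHG share from 0.0505% at 1 bp to 1.03% beyond 50 bp. The CpG methylation of the tile was not held fixed here. Whether distance mattered apart from it was not tested.

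Methylated sites were near one another but mostly surrounded by unmethylated cytosines. Of the CHH sites between 10% and 50%, 28.0% had another member at 10% or more in both libraries within 10 bp, against 4.06% of all CHH sites, and 53.4% had one within 100 bp, against 13.1%. For CHG the shares were 24.2% against 2.84% and 51.9% against 11.7%. All other members within 10 bp of these CHH sites had a pooled level of 2.35% in the B[a]P and 2.40% in the control library, against 0.638% and 0.659% around all CHH sites. The CpG sites within 100 bp had a median level of 86.6% (B[a]P) and 85.9% (control), against 38.9% and 35.7% around all CHH sites. Of the 17308 tiles that held a site at 10% or more in both, 12127 held 1 and 14 held 10 or more.

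The densest windows differed in kind. On chromosome 4, 51 of the 84 members of 1 tile were at 10% or more in both libraries, all within 168 bp (chr4:165366692-165366860). Their median level was 58.1% in the B[a]P and 68.8% in the control library, and the tile's 25 CpG sites were at 98.7% and 98.0%. Both contexts took part, with 15 CHG and 36 CHH sites. At 20 sites the counts were the same, 50 of 87 methylated reads in the B[a]P and 11 of 16 in the control library, and 15 sites were at 100% in both. On chromosome 14, 25 of 46 members were listed within 71 bp (chr14:46507487-46507558), at medians of 82.1% and 90.9%, and 9 of them carried the same counts, 32 of 39 methylated reads in the B[a]P and 10 of 11 in the control library. The window was not even, since the sites at 46507533 to 46507539 and 46507555 to 46507558 were between 13.9% and 41.7% in the control library, beside sites at 100%. Reads left unconverted and DNA methylated throughout cannot be told apart in these tables.

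A window on chromosome 18 had its methylated sites spread among unmethylated ones. Between chr18:68618027 and chr18:68618478, 13 of the tile's 187 members were at 10% or more in both libraries, 12 of them CHH, and 9 of the 12 after the first stood at multiples of 25 bp from it, a spacing noticed in these same sites. The sites at 68618027, 68618052, 68618077, 68618102 and 68618127 were at 24.6%, 39.0%, 29.9%, 50% and 21.9% in the B[a]P library. In the control library they were at 24.6%, 39.0%, 32.8%, 50.4% and 25%. These 5 had 138 to 184 reads (B[a]P) and 183 to 308 reads (control), and the libraries lay close together at each. Other sites of the window lay further apart, such as 68618202 at 13.3% of 15 reads against 34.6% of 26, and 68618327 at 16.2% of 37 against 27.1% of 166. The tile's 10 CpG sites were at 77.2% and 77.7%. The remaining dense windows, chr10:73185345-73185722 and chr19:64664316-64664547, held 13 such sites each, mostly CHH, at medians of 26.9% and 30.4% (B[a]P) and 31.2% and 43.8% (control).

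Chromosome X had the lowest shares. Of its 43938 CHH sites 158 (0.360%) were at 10% or more in both libraries, whereas the autosomes lay between 0.654% (chromosome 12) and 1.01% (chromosome 13), with a median of 0.804%. Of its 27744 CHG sites 40 (0.144%) were, against 0.247% to 0.355% on the autosomes. X was read less deeply, at a median of 25 reads against 34 to 36. Reduced to 20 reads, X stayed lowest, at 0.325% for CHH against 0.700% to 1.02% and at 0.199% for CHG against 0.302% to 0.409%. The mean CpG level of X in the control library, 27.4%, lay within the autosomes' range of 22.7% to 32.2%. On X alone the pooled CHH level was not above the CHG level, in either library.

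**Figure D5:**
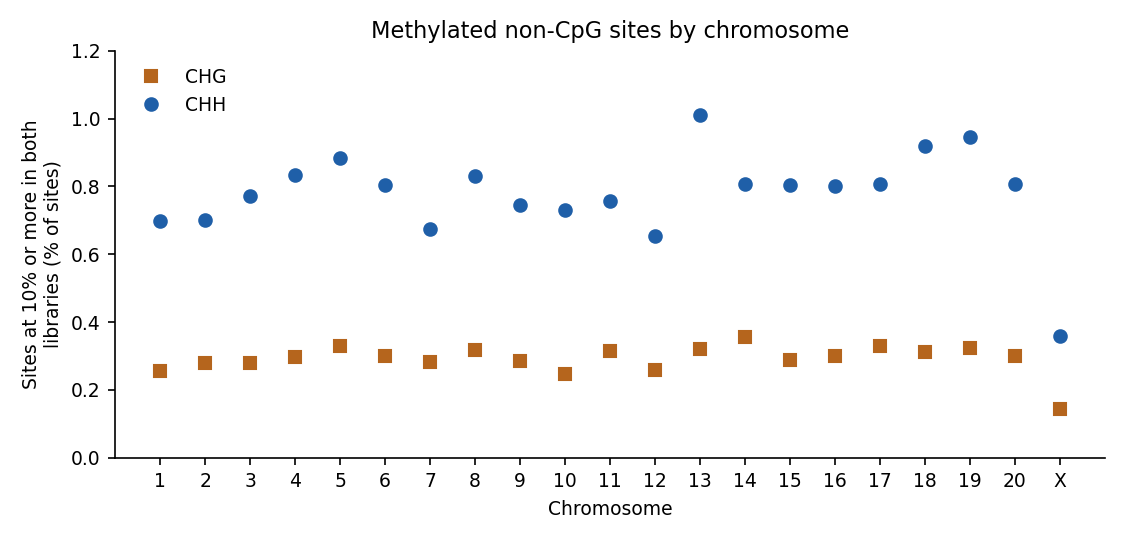
Share of CHG (squares) and CHH (circles) sites at 10% methylation or more in both libraries (vertical axis, percent of sites) for each nuclear chromosome (horizontal axis). Chromosome X is lowest for both contexts, at 0.144% and 0.360%, and CHH lies above CHG on all 21 chromosomes.

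The last comparison was of the B[a]P with the control library, site by site. A site was called at an adjusted p under 0.05 (exact Fisher test, Benjamini-Hochberg over all joined cytosines) and a difference of 10 points or more. Of the 1649274 CHG sites 158 were called, 84 higher and 74 lower in the B[a]P library, and of the 2761479 CHH sites 266, 126 higher and 140 lower. That was 0.00958% of CHG and 0.00963% of CHH sites, against 0.0406% over all 5628789 cytosines (0.0188% higher, 0.0219% lower) and 0.153% of nuclear CpG sites. The shares of CHG and CHH sites called thus lay under that of all cytosines, of which CpG sites made up most calls. A difference of 10 points needs a level of 10% or more in 1 library. In the B[a]P library 35.6% of CpG, 0.619% of CHG and 1.29% of CHH sites reached it, and in the control library 35.4%, 0.811% and 1.68%. The called shares therefore do not compare how often methylated sites of each context differed. A called site had a median difference of 47.7 points (CHG) or 50.3 points (CHH).

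Part of the called sites were close to all or nothing. Of the 424, 183 had no methylated read in 1 of the libraries, and 81 differed by 80 points or more. The CHG site at chr16:49608132 had 57 of 59 methylated reads in the B[a]P and 0 of 119 in the control library (exact Fisher test, adjusted p = 3.07e-40). The CHH site at chr7:27011625 had 81 of 83 against 0 of 169 (exact Fisher test, adjusted p = 5.96e-60), and that at chr20:16794667 had 111 of 116 against 0 of 76. In the other direction the CHG site at chr3:46671521 had 0 of 51 methylated reads in the B[a]P and 28 of 28 in the control library (exact Fisher test, adjusted p = 7.33e-18). The CHH site at chr7:54365188 had 0 of 31 against 12 of 12. The 5 largest differences of each direction and context ranged from 91.9 to 98.4 points where the B[a]P library was higher and were 100 points each in the other direction.

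The called sites mostly stood apart from one another. Of the 20 largest differences, 16 had no other member at 10% or more in both libraries within 100 bp. Over all members, 11.7% of CHG and 13.1% of CHH sites had such a neighbour. A called site under 10% in 1 library, as 299 of the 424 were, could not count as one. This count therefore does not show whether called sites lay near each other. The CpG sites within 100 bp differed between the libraries by under 10 points at 16 of the 20, as at chr7:27011625 with 94.8% in the B[a]P and 94.3% in the control library. At the other 4 they differed by more, as at the CHG site chr20:9611597, called at 50 of 52 against 1 of 79 reads, with CpG at 48.98% and 88.1%. At chr3:46671521 they were at 94.3% and 61.9%. Such CpG differences were not counted around all members. The 424 called sites fell in 402 tiles, 390 of which held 1. Since each library may come from 1 animal, a difference between animals and a difference after B[a]P cannot be told apart.

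A single tile held 5 or more called sites. On chromosome 14, 11 sites between chr14:46507443 and chr14:46507516, overlapping the dense window described above, were at 25.5% to 38.2% in the B[a]P library and at 0% to 5.13% in the control library. Reads numbered 57 to 136 and 54 to 78. Sites this close together can lie on the same reads, so the 11 calls do not count as separate differences. None of the tile's 9 CpG sites was called, at pooled levels of 63.5% and 47.4%. The next tile, on chromosome 18 (chr18:30605300-30605508), held 3 called sites, all higher in the B[a]P library at 42.9% to 66.5% against 0% to 1.43%, and 4 of its 30 CpG sites were called as well.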

How the data were processed

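Hippocampal DNA was measured by RRBS in 1 library a group, grouped by title. Per the file headers, each deposited line holds read counts for and against methylation at 1 cytosine, with the authors' level in percent, which matched those counts. An upper-case context letter stood wherever any read was methylated. Strand is not recorded. No site in either table had under 10 reads. How reads were aligned, called and deduplicated, and how completely they converted, is not given in the sources used here. Per the submitters' processing notes bcl2fastq was used, and both rn6 and rn5 are listed without saying for which step. Positions on chromosome 1 reach 290084086, past its end in rn6, so coordinates are taken as rn5, as the files' start column gives them, whose base is not known. Of 5629211 positions in both libraries, 422 with differing context were left out. CHG sites had a median of 52 (B[a]P) and 58 (control) reads, CHH sites 47 and 46.

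Pooled levels are summed methylated over summed reads. Intervals are exact Clopper-Pearson at 95%. A 2-sided exact Fisher test was run at each joined cytosine of any context, with Benjamini-Hochberg adjustment over all of them, and was checked on simulated counts and against scipy 1.17.1 (Python 3.11.15, numpy 2.4.6). Shares at 20 reads are expectations from the hypergeometric distribution, over sites with 20 or more reads in both libraries. The upper limit for a count of 0 is 3 counts. Named were, per context, the 5 sites of 30 or more reads with the highest lower level, the 5 deepest between 10% and 80%, the 5 largest called differences in each direction, and the 5 tiles with the most sites at 10% in both. The comparison by trinucleotide was not run, as no genome of the build was used. Alternatives were other coverage minimums, thresholds, adjustments and tile sizes. The members and measures were chosen with earlier results of these data known.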

Additional observations from a re-analysis of the deposited data

How the results depend on the processing

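No paired analysis was possible because each group had 1 library and the labels carry no replicate numbers, and for the same reason no library could be left out. The shares, agreement and levels below moved beyond their counting intervals, which are narrow at this depth. CHH stayed above CHG in share under every alternative run, with thresholds from 5% to 25%, but not in pooled level. At 80% or more in both libraries, run ends included, the CHG share was the higher one. There 719 of 1649274 CHG and 518 of 2761479 CHH sites were found. The share of sites at the threshold in both libraries, 0.290% for CHG and 0.777% for CHH, was 0.227% and 0.606% with a minimum of 20 reads, 0.192% and 0.522% with 30, and 0.163% and 0.423% with 50. With a threshold of 5% it was 0.852% and 1.80%, with 20% 0.134% and 0.285%, and with 25% 0.113% and 0.196%. At a fixed depth of 20 reads it was 0.351% and 0.817%, and without run ends, an alternative chosen after seeing the data, 0.235% for CHG. The part of the B[a]P list shared with the control list, 46.9% for CHG and 60.1% for CHH, was 56.0% and 66.0% with 20 reads, 60.7% and 69.6% with 30, 67.1% and 73.7% with 50, 31.4% and 48.7% at a threshold of 5%, 73.0% and 68.1% at 20%, 80.7% and 70.6% at 25%, and 25.4% and 43.7% at the fixed depth, and 42.2% for CHG without run ends. By this list agreement was higher for CHG than for CHH at thresholds of 20% and 25% and lower under the other alternatives. By the control list it was also higher for CHG with 50 reads (69.5% against 67.8%).

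The pooled CHG level in the B[a]P and the control library was 0.594% and 0.622% with a minimum of 20 reads, 0.576% and 0.605% with 30, 0.583% and 0.611% without sites at 80% or more in both, 0.707% and 0.767% as a mean of site levels, and 0.562% and 0.586% without run ends. Without the deepest sites, above 506 (B[a]P) or 662 (control) reads, it was 0.640% in the control library. The CHH level was 0.624% and 0.651%, 0.597% and 0.626%, 0.651% and 0.670%, and 0.784% and 0.905% under the first 4 of these, and 0.672% and 0.689% without the deepest sites. CHH minus CHG was 0.0302 and 0.0286 points with 20 reads, 0.0201 and 0.0213 with 30, 0.0685 and 0.0590 without sites at 80%, 0.0771 and 0.139 as a mean of sites, 0.0576 and 0.0483 without the deepest sites, and 0.104 and 0.0983 without run ends. Higher coverage minimums, chosen after seeing the data, made it smaller, and the highest turned it in the B[a]P library. With 50 reads CHG was at 0.552% and 0.580% and CHH at 0.559% and 0.594%, a difference of 0.00714 and 0.0141 points. With 100 reads CHG was at 0.504% and 0.538% and CHH at 0.496% and 0.538%. The difference was then -0.00785 points in the B[a]P library, with the sign reversed, and 0.00094 in the control library. The cause was not tested.

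With the Bonferroni adjustment 102 CHG and 161 CHH sites were called in place of 158 and 266, and the other 6 settings each kept both counts within 1.5 times. In tiles of 200 bp the pooled non-CpG level was 0.319% (B[a]P) and 0.375% (control) under 10% CpG methylation and 1.02% and 1.10% at 90% or more. Without sites at 80% or more in both it was 0.955% and 1.04% in the latter. All sites lay on assembled chromosomes, so that restriction changed nothing.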

Other observations

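Sites read in 1 library only belonged to no comparison. The B[a]P library held 446570 nuclear CHG and 946899 CHH sites that the control library lacked, with medians of 16 and 15 reads, and 2.10% and 3.40% of them were at 10% or more. The control library held 51596 and 90002 sites of its own, at a median of 14 reads in each context, and 3.19% and 4.15% of them were at 10% or more.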
